A study of Homo sapiens with 8 samples.

Results

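The genes described here encode the parts of adherens junctions, desmosomes, tight junctions and gap junctions, together with the nectins and EPCAM. The 45 genes were taken as a fixed list of names, out of 58735 genes in the count table. They fall into 9 classes by the role of the protein. RNA-seq was carried out on cells labelled A549, an established human non-small cell lung cancer line, in 4 EV libraries and 4 KRT19 libraries. Both groups were transduced with lentivirus, EV with the empty vector and KRT19 with a vector for Flag-tagged KRT19 (labelled KRT19-OVE), and the study's methods describe puromycin selection of such cells to stable lines. No age, time point or further treatment separates the groups. The growth medium was shared, and no source used here says whether the 4 libraries of a group came from separate cultures, so the p-values measure the spread between these libraries, which may be technical. The question was which junction parts these cells express and whether their RNA differed when KRT19, an intermediate filament protein, was added.

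Epithelial cells hold each other through classical cadherins, whose tails bind catenins and through them actin. Desmosomes are built on the same plan from desmogleins and desmocollins, but their plaque of plakoglobin, plakophilins and desmoplakin anchors keratin filaments. Tight junctions seal the space between cells with claudins and occludin held by scaffold proteins, and gap junctions join the interiors of neighbouring cells through connexins.

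Total counts were 14073065 to 17054364 per library. KRT19 had 1 to 5 counts in EV libraries and 4353 to 5147 in KRT19 libraries, a log2 fold change of 10.75 ± 0.12 (SE; edgeR's quasi-likelihood test, Benjamini-Hochberg adjusted p = 5.19e-20). Of 3 keratins of simple epithelia, KRT8 and KRT18 were at 31.2 and 97.2 CPM per kilobase, while KRT7 was low at 0.789 (34 to 71 counts per library). CPM are counts divided by the scaled library size. Levels of different genes are compared after division by the length of the merged exons in kilobases. This length takes in all annotated exons and can exceed that of the transcripts present, so the order between genes is approximate. The label was not met by CDKN2A and MTAP, which are known to be homozygously deleted in A549 but had 1328 to 1824 and 653 to 870 counts per library. Of the alveolar type II genes, SFTPA1, SFTPB and SFTPC were at 0 in all libraries, NKX2-1 had 3 to 4 counts, NAPSA had 1 to 6, and ABCA3 was counted at 88.2 CPM in EV and 82.1 in KRT19. VIM, the intermediate filament protein of mesenchymal cells, stood at 2485 CPM in EV and 2329 in KRT19 without overlap of the libraries (adjusted p = 0.906 in edgeR), ZEB1 at 33.6 and 37.3 CPM and FN1 at 70.1 and 65.2 CPM in EV and KRT19. ESRP1, a splicing regulator of epithelial cells, had 0 to 1 counts. The extraction text of the labels speaks of retina, and RCVRN and SAG were at 0 in all libraries, with 0 to 1 counts of CRX. Endothelial genes had few counts (PECAM1 8 to 24, KDR 8 to 14, VWF 8 to 16, CDH5 0 to 5), as did blood cell genes (PTPRC 0 to 1, CD3E 0, CD14 0 to 6, LCP1 3 to 10). The cells are therefore called here the cells labelled A549. KRT19 replicate 3 stood furthest from its group, with a median absolute log2 deviation of 0.152 against 0.0786 to 0.12 in the other libraries.

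Of the 45 junction genes, 30 had enough counts to be tested. Another 12 had no more than 3 counts in every library, which is called the floor here and corresponds to 0.176 to 0.213 CPM. The remaining 3, CDH3, GJA1 and CRB3, had up to 7, 8 and 9 counts. At this depth a gene at the floor was not detectable above 3 counts, which is not the same as absent, and the floor covers counting error only. In bulk RNA, fewer cells with a transcript and less transcript per cell cannot be told apart.

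**Figure D1:**
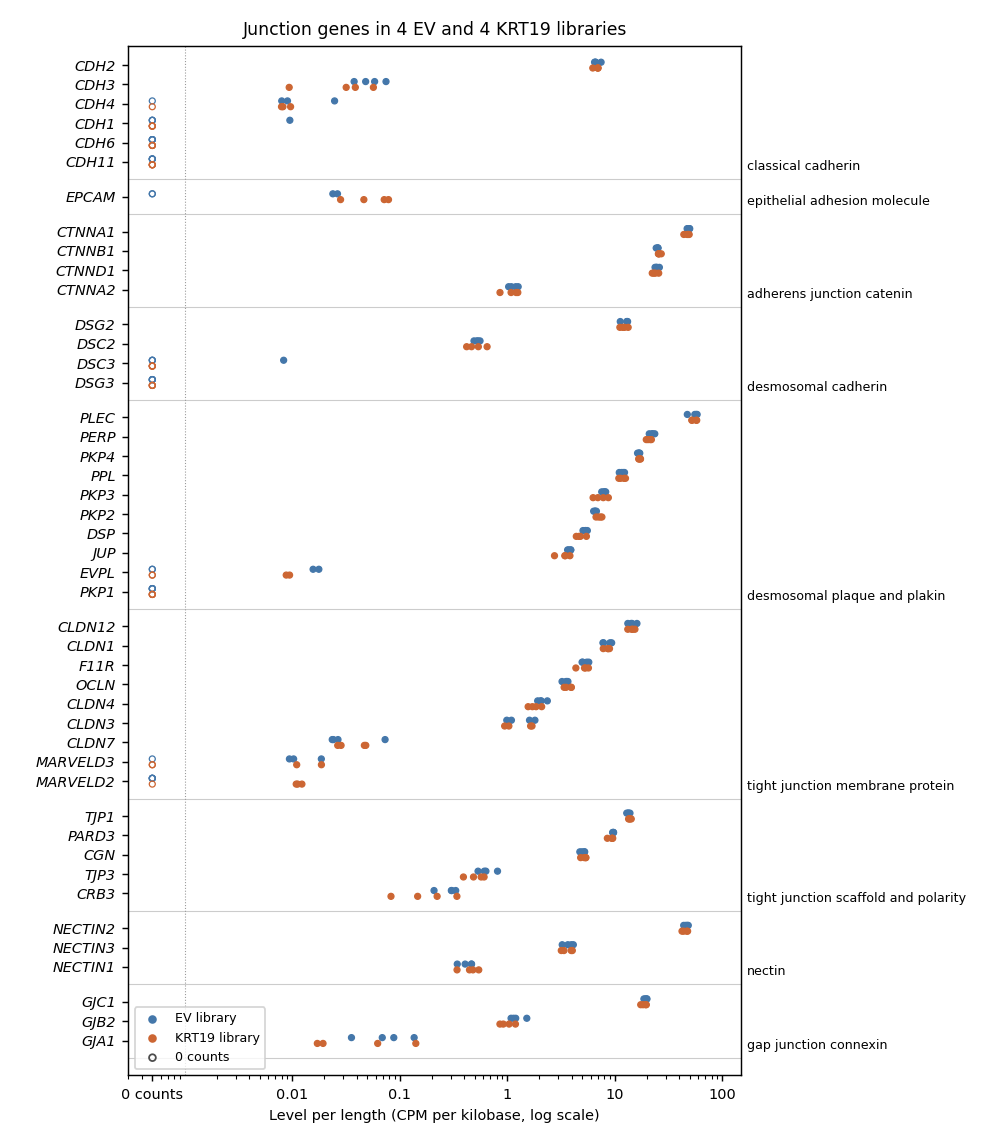
Level per length (CPM per kilobase, log axis) of the 45 junction genes by class, with 1 point per library, EV in blue and KRT19 in orange, and open circles for 0 counts. In 4 of the 9 classes tested genes stand beside genes at the floor, and for all tested genes but CTNNB1 the blue and orange ranges overlap.

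Classical cadherins are the transmembrane proteins of adherens junctions. Among the 6 in the list, N-cadherin (CDH2) was the expressed one and E-cadherin (CDH1) was at the floor. CDH24, a classical cadherin outside the 45, had 273 to 344 counts per library and 5.05 CPM per kilobase, beside 6.82 for CDH2. CDH2 was at 37.1, 32.2, 33.0 and 32.8 CPM in EV replicates 1 to 4. In KRT19 replicates 1 to 4 it was at 31.0, 34.6, 34.7 and 34.5 CPM. EV replicate 1 was the highest library, KRT19 replicate 1 the lowest, and the groups overlapped. The log2 fold change of CDH2 was -0.0023 ± 0.067 (SE, adjusted p = 0.997 in edgeR's quasi-likelihood test). CDH1, the cadherin of epithelia, had 1 count in 1 EV library and 0 in the other 7. CDH3, the neighbour of CDH1 on chromosome 16 at a distance of 14.6 kb, had 1 to 7 counts. CDH4 had 0 to 3 counts, and CDH6 and CDH11 had 0 in all libraries. In each library CDH2 made up 98.8% to 99.8% of the summed level per kilobase of the 6 classical cadherins in the list, which leaves out CDH24. EPCAM, an adhesion molecule of epithelial cells and the only member of its class, had 1, 1, 0 and 0 counts in EV and 3, 1, 2 and 3 in KRT19. CLDN7, a claudin of epithelia, had 1 to 3 counts and was at the floor too, while other junction genes of epithelia, among them CLDN1, CLDN4, OCLN, F11R and PKP3, were counted in every library.

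Catenins link the cadherin tails to actin, and 3 of the 4 were among the 5 highest junction genes per kilobase. CTNNA1, the alpha-catenin that binds actin, was the highest catenin at 48.0 CPM per kilobase. Its EV libraries were at 426, 418, 442 and 438 CPM. Its KRT19 libraries were at 437, 426, 389 and 416 CPM, with KRT19 replicate 3 lowest and the groups overlapping. CTNNA1 had a log2 fold change of -0.048 ± 0.047 (SE, adjusted p = 0.930 in edgeR). CTNND1, the p120 catenin that holds cadherins at the membrane, was at 24.3 CPM per kilobase and its log2 fold change was -0.057 ± 0.053 (SE). CTNNA2, the alpha-catenin of neurons, was far lower at 1.13 CPM per kilobase.

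CTNNB1 encodes beta-catenin, which ties the cadherin tail to alpha-catenin and also acts in Wnt signalling. It read 302, 301, 299.7 and 291 CPM in EV. In KRT19 it read 324, 305, 308 and 308 CPM. Every KRT19 library lay above every EV library, which made CTNNB1 the single gene of the 45 without overlap among those tested, beside 3.44% of all 14621 genes tested. The means were 299 ± 5.27 and 311 ± 8.78 CPM (SD, n = 4 each). An exact permutation test, two-sided, gave p = 0.0286, the smallest that 4 libraries against 4 allow. Complete separation fixes this p, so it adds nothing to the lack of overlap. By edgeR's quasi-likelihood fit CTNNB1 differed by a log2 fold change of 0.060 ± 0.044 (SE), with a 95% interval of -0.033 to 0.15 (adjusted p = 0.912), so the difference did not pass.

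Desmosomal cadherins form the extracellular part of the desmosome, and the cells held 1 desmoglein at a high level and 1 desmocollin at a low level. DSG2 was at 81.8, 80.3, 69.9 and 80.9 CPM in EV. KRT19 libraries held 69.3, 76.6, 82.8 and 73.6 CPM. EV replicate 3 stood below the other EV libraries, and the groups overlapped. DSC2 was at 6.52, 6.15, 7.0 and 6.71 CPM in EV. The KRT19 values were 5.25, 5.83, 8.14 and 6.75 CPM, so that the KRT19 libraries held both its lowest and its highest value. The log2 fold changes were -0.049 ± 0.066 for DSG2 and -0.019 ± 0.13 for DSC2 (SE, adjusted p = 0.954 and 0.989 in edgeR). With 1 library left out, DSG2 ranged from -0.10 (without EV replicate 3) to -0.0095 (without KRT19 replicate 1). DSG3, the desmoglein of stratified epithelia, had 0 counts in all libraries, and DSC3 had 1 count in 1 EV library. Per kilobase, DSG2 held 95.3% to 96.4% of the summed level of the 4 genes in each library.

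The desmosomal cadherin genes lie together on chromosome 18 within 559 kb, from DSC3 to DSG2 (GRCh38). DSG2 spans 31498043 to 31549008 on the plus strand and DSG3 ends 19.3 kb before it, while DSC2 spans 31058840 to 31102522 on the minus strand and DSC3 begins beyond its end. The 3 remaining genes of the cluster, which are not among the 45, had 0 to 2 counts (DSG1), 0 (DSG4) and 0 to 1 (DSC1). DSC2 thus lay between genes at the floor and DSG2 beside one, as the map of levels by distance shows.

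**Figure D2:**
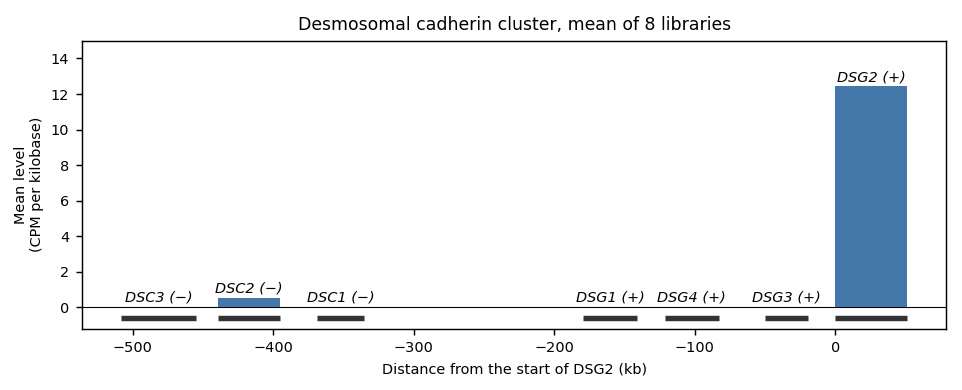
Mean level over 8 libraries (CPM per kilobase, bar height from 0) of the 7 desmosomal cadherin genes against distance from the start of DSG2 in kb, with gene extents as dark lines and strand in brackets. DSG2 reaches 12.4, DSC2 0.524 and the other 5 genes stay near 0.

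The bases before the starts of DSG2, DSC2, DSC3 and DSG3 are shown because these 4 members sit in the same cluster at such different levels. They are from RefSeq (GRCh38.p14), 5′ to 3′ on the strand of the gene, and are cut where the gene of the count table begins. Capitals mark CG dinucleotides (CpG sites). The windows are chr18:31497927-31498042 (plus) for DSG2, chr18:31102523-31102671 (minus) for DSC2, chr18:31042816-31042992 (minus) for DSC3 and chr18:31447491-31447740 (plus) for DSG3.
DSG2: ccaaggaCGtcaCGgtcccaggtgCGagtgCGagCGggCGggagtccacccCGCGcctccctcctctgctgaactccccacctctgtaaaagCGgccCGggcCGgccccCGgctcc
DSC2: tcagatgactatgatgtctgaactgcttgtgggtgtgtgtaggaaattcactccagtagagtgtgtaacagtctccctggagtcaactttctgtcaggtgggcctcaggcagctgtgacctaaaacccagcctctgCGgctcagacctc
DSC3: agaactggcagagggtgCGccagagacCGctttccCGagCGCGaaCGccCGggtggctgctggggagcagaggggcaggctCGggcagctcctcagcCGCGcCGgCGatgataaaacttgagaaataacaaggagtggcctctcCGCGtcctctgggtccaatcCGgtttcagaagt
DSG3: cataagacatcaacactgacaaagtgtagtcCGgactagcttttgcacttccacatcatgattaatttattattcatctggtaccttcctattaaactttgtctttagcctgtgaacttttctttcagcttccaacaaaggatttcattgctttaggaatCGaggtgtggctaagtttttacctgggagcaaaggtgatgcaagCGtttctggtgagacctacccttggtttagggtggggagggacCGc
The DSG2 window held 12 CpG in 116 bases and the DSC2 window 1 in 149. The DSC3 window held 15 in 177, although DSC3 was at the floor, and the DSG3 window 4 in 250. The cut decides the value of DSC2, since the whole 250 bases before the RefSeq start held 26 CpG for DSG2, 12 for DSC2, 18 for DSC3 and 4 for DSG3.

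Promoter windows were found for 29 of the 45 junction genes, with none for PARD3, MARVELD3, CDH11, PKP3, F11R, EPCAM, PPL, CTNND1, CDH3, PKP2, PLEC, CDH1, CDH6, NECTIN1, GJC1 and EVPL. The E-box CACCTG, read by ZEB and SNAIL family factors, was searched first, over the 250 bases before the RefSeq start and on both strands (as CACCTG or its reverse complement CAGGTG, which do not overlap each other). It occurred in 5 of 21 windows of tested junction genes (23.8%), in 2 of 8 windows of untested ones and in 17.5% of all 35116 windows. CpG content was counted after that result had been seen. The median was 24 CpG in the tested junction genes and 13 in the untested ones, beside 11 over all windows. Both counts were made with the levels known, over few windows and with no test, and the ranges overlapped, at 2 to 34 CpG in tested and 1 to 20 in untested genes. A match or its lack in these windows describes the letters only.

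Plaque proteins such as desmoplakin attach the desmosome to keratin filaments. Their class here also holds other proteins of cell contacts and intermediate filaments, and 8 of its 10 genes were expressed. Of these 8, DSP and JUP were the lowest, at 5.09 and 3.59 CPM per kilobase. PLEC encodes plectin, a linker of intermediate filaments, and was the highest of all 45 genes at 55.0 CPM per kilobase. It was at 947, 807, 996 and 977 CPM in EV. The KRT19 libraries were at 890.4, 976, 891 and 987 CPM, within the range of the EV libraries, and the log2 fold change was 0.0068 ± 0.062 (SE, adjusted p = 0.992 in edgeR). PLEC made up 39.1% to 45.0% of the summed level per kilobase of its class. PERP, a membrane protein of desmosomes, followed at 21.7 CPM per kilobase, PKP4, an armadillo protein of cell contacts, at 16.96, the plakin PPL at 11.8 and the plakophilin PKP3 at 7.73. EVPL, the plakin envoplakin, had 0 to 2 counts, and PKP1, the plakophilin of stratified epithelia, had 0 in all libraries.

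Of the 30 tested junction genes, 2, DSP and PKP2, had an unadjusted p under 0.05 in edgeR, beside 5.41% of all genes tested. They had opposite signs, and neither passed the adjustment. DSP encodes desmoplakin, which binds keratins directly. It read 54.1, 54.4, 51.3 and 56.3 CPM in EV. In KRT19 it read 48.5, 55.2, 44.4 and 47.1 CPM. KRT19 replicate 2 lay inside the EV range and the other 3 KRT19 libraries lay below it. edgeR's log2 fold change was -0.15 ± 0.067 (SE), with a 95% interval of -0.29 to -0.0076 (edgeR, adjusted p = 0.906).

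PKP2 encodes plakophilin 2, which brings desmoplakin to the plaque. Its EV libraries were at 46.5, 45.0, 46.4 and 47.7 CPM. Its KRT19 libraries were at 52.2, 53.7, 50.1 and 47.3 CPM. KRT19 replicate 4 lay inside the EV range and the other 3 lay above it. For PKP2 this gave a log2 fold change of 0.13 ± 0.058 (SE), with a 95% interval of 0.0095 to 0.25 (edgeR, adjusted p = 0.906). The unadjusted p was below 0.05 in 6 of 14 alternative fits for PKP2 and in 7 of 14 for DSP.

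JUP encodes plakoglobin, the catenin of desmosomes. It was at 19.3, 19.3, 18.4 and 18.1 CPM in EV. KRT19 replicates 1 to 4 read 17.2, 19.0, 13.6 and 17.01 CPM. KRT19 replicate 3 was the lowest library and KRT19 replicate 2 lay inside the EV range. edgeR's log2 fold change was -0.17 ± 0.093 (SE), with an interval of -0.37 to 0.023 (edgeR, adjusted p = 0.906). KRT19 replicate 3, the library that stood furthest from its group, was also the lowest for DSP. Without it the log2 fold change of JUP was -0.084 and that of DSP -0.11, whereas without KRT19 replicate 2 they were -0.24 and -0.21. The unadjusted p of DSP stayed under 0.05 without EV replicate 3 or KRT19 replicate 2 and not without any of the other 6 libraries.

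**Figure D3:**
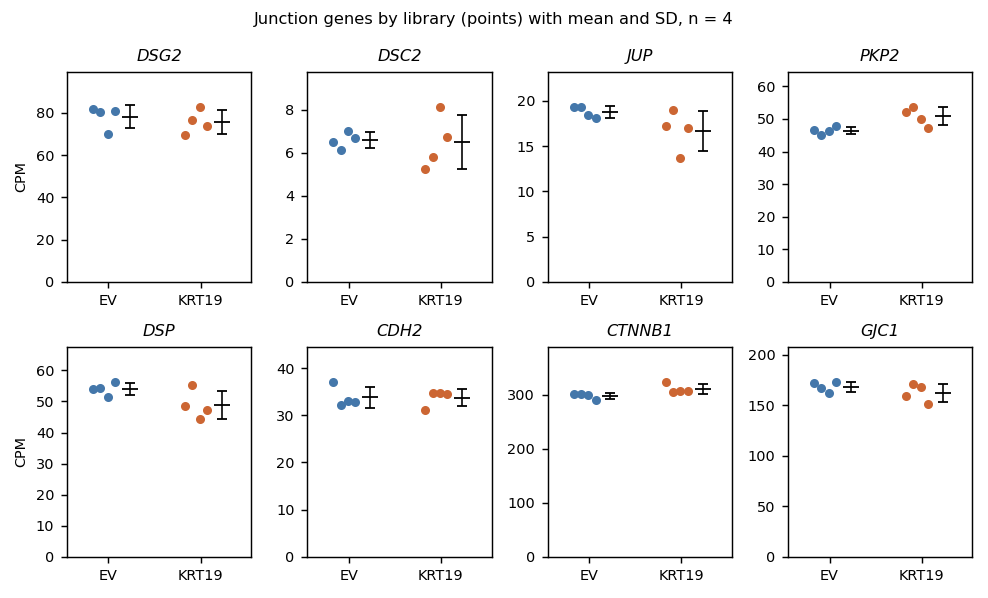
CPM in each library (points, axes from 0) for 5 desmosomal genes, CDH2, CTNNB1 and GJC1, with the mean and SD of 4 libraries beside them. Only the CTNNB1 points of the groups do not overlap.

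Tight junction membrane proteins included claudins without the epithelial CLDN7. CLDN12, a claudin found widely across tissues, was the highest of its class at 14.5 CPM per kilobase and held 38.9% to 43.0% of its sum. It was at 108.8, 98.1, 89.5 and 96.0 CPM in EV. In KRT19 it was at 89.4, 99.5, 104 and 96.9 CPM, overlapping EV, with a log2 fold change of -0.0083 ± 0.065 (SE, adjusted p = 0.990 in edgeR). Of its exon bases, 17.7% also lie in other genes, so its counts are uncertain. CLDN1, the main barrier claudin of skin, stood at 8.54 CPM per kilobase, and F11R, the adhesion molecule JAM-A, at 5.25, with 36.6% of its exon bases shared with another gene. CLDN3, the neighbour of CLDN4 on chromosome 7, was at 1.36 CPM per kilobase. MARVELD2, the tricellulin of 3-cell contacts, and MARVELD3 had 0 to 1 and 0 to 2 counts.

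CLDN4, a claudin of simple epithelia, and OCLN, occludin, were among the genes with the largest differences in either direction. CLDN4 was at 9.05, 9.76, 11.1 and 9.65 CPM in EV. KRT19 libraries held 8.09, 8.75, 7.38 and 9.86 CPM, with 3 of 4 libraries below all of EV. CLDN4 had a log2 fold change of -0.22 ± 0.11 (SE) with an interval of -0.46 to 0.013 (edgeR, adjusted p = 0.906) and was at -0.12 in limma-voom with sample quality weights (weighted limma-voom, which changes both the test and the weight of each library). OCLN was at 23.9, 21.9, 24.9 and 24.3 CPM in EV. The KRT19 values were 22.9, 26.7, 26.8 and 24.0 CPM, with the groups overlapping. Its log2 fold change was 0.078 ± 0.074 (SE, adjusted p = 0.927 in edgeR), and 10.5% of its sequence words occur in other genes. With 1 library left out OCLN ranged from 0.040 (without EV replicate 2) to 0.12 (without KRT19 replicate 1).

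Tight junction scaffolds join the membrane proteins to actin, and TJP1, the ZO-1 protein, led them at 13.6 CPM per kilobase. It was at 157, 150.5, 146 and 152 CPM in EV. The KRT19 libraries were at 152, 161, 154 and 157 CPM, overlapping EV, with a log2 fold change of 0.045 ± 0.047 (SE, adjusted p = 0.933 in edgeR). PARD3, a polarity protein, was at 9.49 and cingulin (CGN) at 5.14 CPM per kilobase. CRB3, the apical polarity protein of epithelia, had 2 to 9 counts. TJP3, the ZO-3 protein, had 25 to 57 counts per library and, in edgeR, the largest negative difference of the 30 tested genes. It was at 2.26, 3.43, 2.68 and 2.59 CPM in EV. KRT19 replicates 1 to 4 read 2.05, 2.42, 2.58 and 1.65 CPM, overlapping EV. Its log2 fold change of -0.33 ± 0.20 (SE) had an interval of -0.75 to 0.082 (adjusted p = 0.906 in edgeR). It was -0.21 without EV replicate 2, the highest library, and -0.46 in weighted limma-voom.

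Nectins are adhesion molecules of adherens junctions, and NECTIN2 led the 3 in the list with 90.5% to 92.9% of their summed level per kilobase. PVR, classed with the nectins but outside the list, stood at 33.0 CPM per kilobase beside 45.8 for NECTIN2. NECTIN2 was at 165, 172, 182 and 177 CPM in EV. In KRT19 it was at 179, 176, 159 and 164 CPM, overlapping EV, with a log2 fold change of -0.037 ± 0.053 (SE, adjusted p = 0.955 in edgeR). NECTIN3 stood at 3.70 CPM per kilobase. NECTIN1 was the lowest tested gene per kilobase (0.437), and was at 3.59, 3.13, 3.59 and 2.65 CPM in EV. KRT19 libraries held 3.44, 4.20, 2.64 and 3.71 CPM, overlapping EV. Its log2 fold change of 0.10 ± 0.17 (SE, adjusted p = 0.96 in edgeR) was among the 3 largest positive ones, but it was 0.0070 without KRT19 replicate 2, 0.015 without EV replicate 4 and 0.22 without KRT19 replicate 3.

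Gap junction connexins were represented by GJC1, connexin 45, and not by connexin 43 (GJA1), which had 1 to 8 counts. GJC1 was at 172, 167, 162 and 173 CPM in EV. The KRT19 values were 159, 171, 168 and 152 CPM, overlapping EV, with a log2 fold change of -0.053 ± 0.051 (SE, adjusted p = 0.927 in edgeR). It held 92.6% to 95.3% of the summed level of the 3 connexins per kilobase. GJB2, connexin 26, was low, at 3.06, 2.77, 2.92 and 3.88 CPM in EV. The KRT19 libraries were at 2.66, 2.35, 3.04 and 2.18 CPM, overlapping EV. GJB2 had a log2 fold change of -0.30 ± 0.18 (SE), with an interval of -0.67 to 0.074 (adjusted p = 0.906 in edgeR). Without EV replicate 4 this was -0.18, and in weighted limma-voom it was -0.46, level with TJP3.

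In the order of levels per kilobase, PLEC (55.0), CTNNA1 (48.0) and NECTIN2 (45.8) overlapped as neighbours over the 8 libraries, and NECTIN2 stood apart from CTNNB1 (25.6), the next gene. From CTNNB1 down to GJC1 (19.1) neighbours overlapped again. PKP4 (16.96) overlapped neither GJC1 above it nor CLDN12 (14.5) below it. The lowest tested genes were TJP3 (0.583), DSC2 (0.524) and NECTIN1 (0.437), which overlapped as neighbours. PLEC exceeded 94.5% of all tested genes in level per kilobase and NECTIN1 10.3%.

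Across the comparison, 0 of the 30 tested junction genes passed the adjusted threshold of 0.05 in edgeR's quasi-likelihood test, in DESeq2 or in weighted limma-voom, beside 0.00684%, 0.0342% and 0.0547% of all genes in the 3 tests, with KRT19 alone in edgeR. At an unadjusted p under 0.05, edgeR found 2 beside 5.41% of all genes, DESeq2 2 beside 3.97% and weighted limma-voom 4 beside 9.14%. DSP and PKP2 were the 2 in edgeR and in DESeq2, and DSP, GJC1, GJB2 and TJP3 the 4 in weighted limma-voom. The median log2 fold change was -0.039 over the 30 genes and 0.0051 over all genes, and the median of its absolute value was 0.051 and 0.068. Of the 30, 10 had a positive and 20 a negative value, beside 7637 and 6984 of all genes. The 95% interval lay within a 1.5-fold change in either direction for 28 of the 30, beside 81.9% of all genes, with TJP3 and GJB2 as the exceptions.

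**Figure D4:**
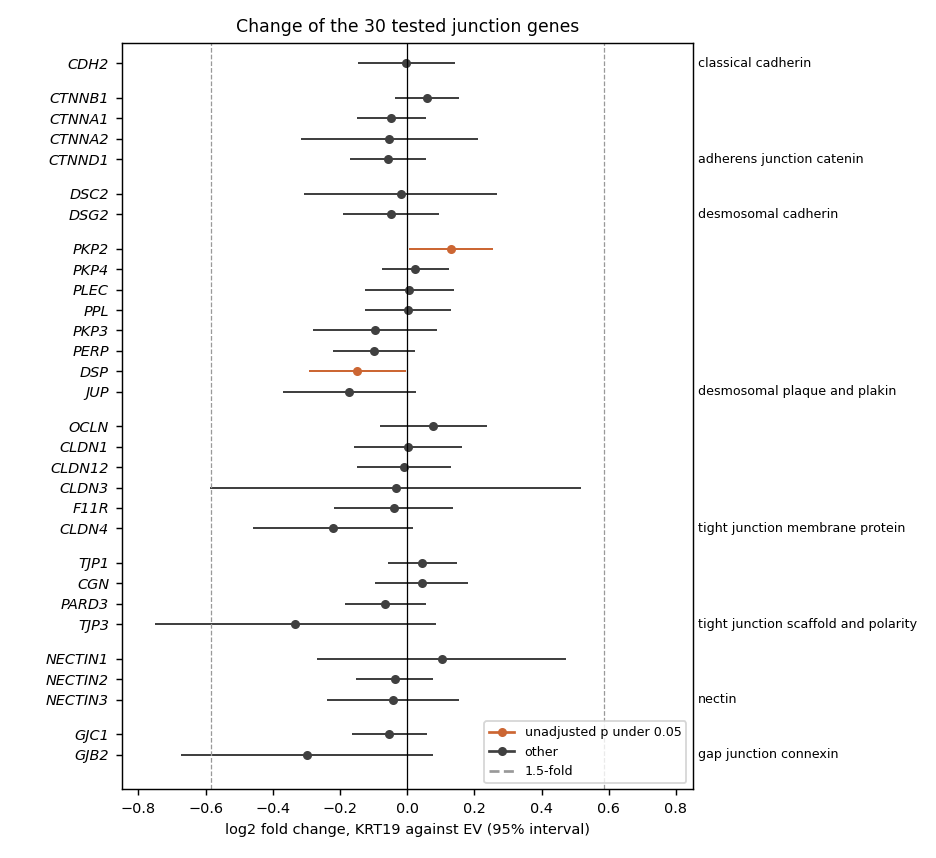
log2 fold change of KRT19 against EV with its 95% interval for the 30 tested junction genes by class, from edgeR on 4 libraries per group. The intervals of PKP2 and DSP (orange, unadjusted p under 0.05) lie just off 0, and only those of TJP3 and GJB2 cross a dashed 1.5-fold line.

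Another 74 junction genes outside the 45 were examined in the same fit. Of these, 35 were tested, 28 were at the floor and 11 had few counts. In edgeR 0 passed the adjusted threshold, and 3 of the 35 had an unadjusted p under 0.05, beside 5.41% of all genes, with adjusted p = 0.906 for each. CTNNAL1, an alpha-catenin relative, was at 102 ± 6.58 CPM in EV and 112 ± 7.0 in KRT19 (SD, n = 4 each), the only one of the 35 without overlap, beside 3.44% of all genes. VCL, vinculin, which joins catenins to actin, was at 521 ± 18.6 and 485 ± 14.5 CPM. MAGI1, a tight junction scaffold, was at 30.3 ± 1.06 and 27.3 ± 1.62 CPM. edgeR's log2 fold changes were 0.14 ± 0.061, -0.10 ± 0.045 and -0.15 ± 0.065 (SE). Of the 74, in CPM per kilobase, VCL (50.4) was highest in the catenin class, PVR (33.0) among nectins and MACF1 (17.7) among plakins. SYMPK (12.5) led the genes classed as tight junction scaffolds, JAM3 (6.82) the tight junction membrane proteins and CDH24 (5.05) the classical cadherins. PANX1 (13.2), a pannexin, was classed with the connexins, of which GJA3 (0.701) was the highest in the 74.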

How the data were processed

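The deposited data are gene counts of reads, left unnormalized by the authors, in 1 table. The submitters' processing notes name Bowtie 0.12.2, featureCounts 1.5.0-p3, DESeq2 and hg38 without giving roles, and treatment of reads that match several genes is not given in the sources used here. The library kit does not mark strand. All 58735 genes had the coordinates and merged exon lengths of GENCODE 29. The gene length of the deposited table was used for CPM per kilobase.

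The analysis used edgeR 4.0.16 under R 4.3.3. Genes were kept by filterByExpr (14621 genes, at least 99.8% of counts), libraries were scaled by TMM, and the groups were compared in 1 group model (glmQLFit, glmQLFTest, two-sided, Benjamini-Hochberg over all genes, threshold 0.05). The study's methods state a p of 0.05 without saying whether it was adjusted, so both are given. Single genes were compared by exact permutation over 70 labelings. Replicates of a group differed by more than counting noise (chi-square per degree of freedom 2.82 to 13.8). Alternatives were DESeq2 1.42.0, limma-voom with sample quality weights (limma 3.58.1), DESeq2 size factors, other filters, a replicate block and leaving out each library. The procedure was tested on simulated data.

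The member list is one of names, with no measured value in its rule, but members, lists and named genes were chosen with earlier results of these data known. Among members, values in every library are given for the highest gene of each class, CDH2 and the desmosomal genes DSP, DSG2, DSC2, JUP and PKP2, genes with an unadjusted p under 0.05 or without overlap, and the 3 largest differences in each direction. Promoter windows were added after the levels were seen. The E-box was searched first, and CpG content was counted after its result.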

Additional observations from a re-analysis of the deposited data

Results flagged for a closer look

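In 62 groups of 4 libraries, 1 for each group of KRT19 and of the 30 tested junction genes, 4 had a library far from the other 3, with a gap that took most of the range of the group (beyond Dixon's 95% critical value). Chance alone gives about 1 in 20 such groups. KRT19 in KRT19 replicate 3 was at 8.17 log2 CPM with the others at 8.27 to 8.28 (share of the range 0.949). CDH2 in KRT19 replicate 1 was at 4.96 with the others at 5.11 to 5.12 (0.936). DSG2 in EV replicate 3 was at 6.13 with the others at 6.33 to 6.36 (0.884). PARD3 in KRT19 replicate 4 was at 5.80 with the others at 5.94 to 5.97 (0.836). In all 4 cases the library was the lowest of its group.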

How the results depend on the processing

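No junction gene passed the adjusted threshold in any of the 14 alternatives, and the same held for the 74 other junction genes. Over all genes, 1 passed in edgeR, 5 with the DESeq2 Wald test, 8 with limma-voom with sample quality weights (weighted limma-voom, which changes test and weights together) and 71 with the looser filter, and 1 to 5 when 1 library was left out (3 without EV replicate 1 and 5 without KRT19 replicate 3). At an unadjusted p under 0.05 the number of all genes went from 791 to 1337 with weighted limma-voom and 1559 with the looser filter, and to 620 to 1228 with 1 library left out (1228 without KRT19 replicate 1). For the junction genes this count went from 2 to 4 with weighted limma-voom and 1 with the looser filter. It was 0 to 2 with 1 library left out, at 0 without EV replicate 2 and 1 without EV replicate 1, 3 or 4 or KRT19 replicate 1 or 3. The log2 fold change of KRT19 was 10.52 to 11.17 with 1 library left out. The cause of these shifts was not tested.

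With the replicate number as a block, the unadjusted p was under 0.05 for 0 junction genes and 451 of all genes, of which 1 passed the adjustment. The deviations of same-numbered libraries from their group means had correlations of -0.11, -0.024, -0.16 and 0.057. No source used here says whether the numbers pair libraries, and these values cannot decide it.

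The log2 fold change of PKP2 lay between 0.10 and 0.16 over the alternatives and that of DSP between -0.21 and -0.11. Of the 30 tested junction genes, 20 kept their sign throughout. The 10 that did not had an absolute log2 fold change of at most 0.053. CDH2 was at 0.017 with weighted limma-voom. With 1 library left out, the ranges were -0.12 to 0.045 for CTNNA2, -0.025 to 0.044 for CDH2, -0.15 to 0.074 for DSC2, -0.058 to 0.041 for PLEC, -0.033 to 0.038 for PPL, -0.10 to 0.017 for NECTIN3, -0.050 to 0.045 for CLDN12, -0.039 to 0.051 for CLDN1, -0.093 to 0.032 for F11R and -0.17 to 0.12 for CLDN3. Among genes that kept their sign, the ranges were -0.071 to -0.016 for CTNNA1 and -0.065 to -0.0065 for NECTIN2, both nearest to 0 without KRT19 replicate 3. They were -0.096 to -0.028 for CTNND1, 0.039 to 0.070 for CTNNB1, 0.029 to 0.062 for TJP1 and -0.078 to -0.021 for GJC1. In weighted limma-voom GJC1 was at -0.095. GJB2, NECTIN1, CLDN3 and TJP3 were not in the fit with the stricter filter. Depth limits the genes of few counts most, with wide intervals for TJP3, GJB2 and CLDN3.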
